A study of Mus musculus with 10 samples.

Results

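The interferon-stimulated effector genes are genes that cells switch on in response to interferon and whose products act directly against viruses and intracellular microbes. The set described here holds 45 named genes of the 55359 in the deposited table, matched by gene identifier, and all 45 were found. RNA was sequenced from Lin- cells, the bone marrow cells left once cells bearing surface markers of mature blood lineages are depleted, of mice carrying floxed alleles of Dhx9, an RNA helicase. The 5 libraries labelled WT came from Dhx9f/f mice and the 5 labelled cKO from Dhx9f/f;MX1 mice, which the labels also call Dhx9 knock down. The floxed alleles were thus present in both groups, and the cKO mice also carried Cre under the Mx1 promoter, which itself answers to interferon and is active in many tissues besides blood cells. By the study's general methods Cre was induced with poly(I:C), a double-stranded RNA mimic that triggers interferon. It was given in several doses on alternate days, and mice were by default analysed days after the first dose. No separate interval is stated for these libraries. Whether the WT mice behind these libraries also received poly(I:C) is not stated. If they did not, the agent and the genotype cannot be told apart. Ages, and whether a library held 1 mouse or several, are not given for this experiment, so p-values measure the spread between these libraries.

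Type I interferons (alpha and beta) bind the receptor IFNAR1/IFNAR2, and type II interferon (gamma) binds IFNGR1/IFNGR2. The receptor-bound kinases JAK1, TYK2 and JAK2 then pass the signal to transcription factors. A complex that contains STAT2 and IRF9 binds the interferon-stimulated response element (ISRE) near type I target genes, whereas the response to interferon gamma acts largely through the gamma-activated sequence (GAS). In bone marrow, interferon is known to drive quiescent stem cells into division and to shape the output of myeloid cells.

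The promoters of 6 members are shown because they carry the ISRE letters (TTTCNNTTTC, or GAAANNGAAA on the other strand) and belong to genes on which the results turn. Each run is the 120 bases just before the start of the gene's main (canonical) transcript, on the strand of the gene, from the GRCm39 genome. Capitals mark ISRE letters, including overlapping matches. For Rtp4 and Usp18 this start lies inside the annotated gene. The regions are chr4:156285304-156285423 (minus strand) for Isg15, chr6:121222737-121222856 (plus) for Usp18, chr19:34618151-34618270 (plus) for Ifit1, chr12:26506452-26506571 (minus) for Rsad2, chr16:23428526-23428645 (plus) for Rtp4 and chr7:104114408-104114527 (minus) for Trim30a.
Isg15: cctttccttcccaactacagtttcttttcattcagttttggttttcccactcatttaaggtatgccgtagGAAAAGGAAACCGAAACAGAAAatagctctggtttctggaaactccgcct
Usp18: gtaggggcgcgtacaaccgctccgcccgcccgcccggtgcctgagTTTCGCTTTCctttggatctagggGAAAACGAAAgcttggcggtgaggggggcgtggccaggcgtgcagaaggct
Ifit1: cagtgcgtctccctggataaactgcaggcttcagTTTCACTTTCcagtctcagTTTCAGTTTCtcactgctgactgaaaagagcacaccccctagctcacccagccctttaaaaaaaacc
Rsad2: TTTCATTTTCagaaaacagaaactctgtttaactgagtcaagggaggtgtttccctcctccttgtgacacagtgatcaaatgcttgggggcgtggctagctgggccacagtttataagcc
Rtp4: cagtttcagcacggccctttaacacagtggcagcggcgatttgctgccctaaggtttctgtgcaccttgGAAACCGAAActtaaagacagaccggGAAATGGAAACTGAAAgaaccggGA
Trim30a: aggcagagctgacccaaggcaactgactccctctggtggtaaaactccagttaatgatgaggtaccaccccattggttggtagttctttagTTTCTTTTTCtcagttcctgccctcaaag

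In Isg15, 3 overlapping matches began 50, 44 and 38 bases before the start. Ifit1 held matches beginning at 86 and 67 bases, Usp18 at 75 and 51, and Rtp4 at 51, 25 and 19, with a further match at 2 that ran across the start and is seen as the last capitals. Rsad2 held a single match beginning at 120 bases and Trim30a one at 29. Over a window from 250 bases before to 50 after the start, searched on both strands, ISRE letters were found for 22 of 45 members (48.9%), against 714 of 18623 promoters of all genes tested (3.83%). GAS letters (TTCNNNGAA) were found for 11 members (24.4%), against 7.66% of all promoters. The ISRE share was 37.8% of members and 3.3% of all promoters when matches had to lie wholly before the start. A match is a string of letters and not a measured binding site, and a window without one does not speak to binding.

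**Figure D1:**
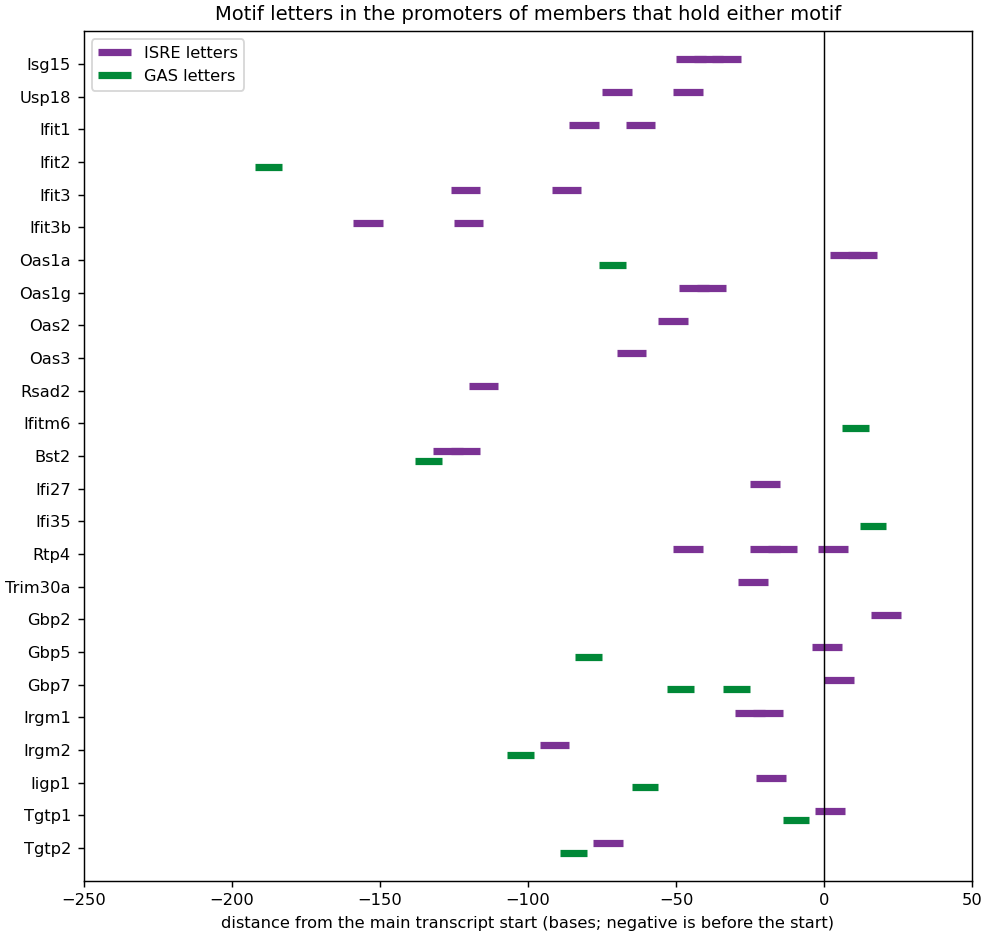
Places of ISRE letters (purple) and GAS letters (green) around the main transcript start of the members that hold either, with distance from the start in bases on the horizontal axis and 1 gene per line. Only the matches of Ifit2 (192 bases) and Ifit3b (159 bases) begin more than 138 bases before the start, and the ISRE letters of Gbp2 (16 bases) and Oas1a (2 and 8 bases) begin after it.

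Many members sit in clusters of related genes: the IFIT genes on chromosome 19, the OAS genes on chromosome 5, the IFITM genes on chromosome 7, Gbp2, Gbp3, Gbp5 and Gbp7 on chromosome 3, and the immunity-related GTPase genes, apart from Iigp1, on chromosome 11. In the annotation, 23 of the 45 members overlap another gene of the table, and without a stated strand setting their reads cannot be fully told apart from that gene.

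Expression was measured as FPKM, fragments corrected for gene length and for how many were mapped in that library, so levels of different genes can be compared per length. Depth, read back from the steps of the values, was 13860000 to 18720000 fragments per library. Dhx9, on chromosome 1, was checked first. It was at 65.43 to 72.42 FPKM in the libraries labelled WT and at 130.82 to 156.49 FPKM in those labelled cKO, a log2 fold change of 1.0 (standard error 0.0654, limma adjusted p = 1.39e-05). The total RNA of the targeted gene was thus higher in the libraries labelled cKO, although the labels call them knock down. A single value for the whole gene does not show whether its floxed part was removed. Every direction given here is between labels. Xist, a sex-linked gene, was at 0.04 to 0.07 FPKM in WT 1 and 2, at 99.19 to 127.76 in WT 3, 4 and 5, and below 0.1 in each cKO library. The sample titles give no sex, and the study's general methods say only that mouse sex was randomized. Sex may thus be uneven between labels, and a sex difference cannot be fully told apart from the label.

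Markers of blood cell types also differed between labels. The summed FPKM of 10 monocyte and macrophage markers was 873 to 1550 in WT and 7.19 to 256 in cKO, that of 10 dendritic cell markers 139 to 161 and 36.4 to 99.1, and that of 10 neutrophil markers 2740 to 3710 and 148 to 2600. For these lists 8 of 10, 5 of 10 and 5 of 10 markers were called lower. The sum of 10 erythroid markers was 1030 to 1950 in WT and 3630 to 6300 in cKO, with 7 called higher. Lymphoid markers lay at lower sums in cKO as well, 0.87 to 8.5 against 27.5 to 35.5 for B cells and 7.5 to 30.7 against 83.8 to 111 for T and NK cells. Megakaryocyte markers (8 of 8 called lower), stem cell markers (8 of 8 tested), mast cell, basophil and eosinophil markers (6 of 7) and stromal and endothelial markers (6 of 8, with 1 higher) were lower too. None of these lists had a marker at 0 in all libraries. Myeloid cells express many interferon-stimulated genes, and in bulk RNA fewer cells of a type cannot be told apart from less RNA per cell. The part of cell make-up in the results below was not tested.

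Between labels, 10 of the 44 members tested were lower in cKO (22.7%) and 0 were higher, where a call needed an adjusted p below 0.05 together with at least a 2-fold change (limma on log2(FPKM + 0.1)). Over all 18742 genes tested, 16.8% were lower and 4.6% higher, so the share of members that fell was near that of all genes. The 10 were the antiviral GTPase gene Mx1, the membrane protein genes Ifitm1 and Ifitm3, Ifi27l2a, Ifi44, Trim30a, the guanylate-binding protein genes Gbp2, Gbp3 and Gbp5, and the immunity-related GTPase gene Irgm2. At an unadjusted p under 0.05, 16 members were lower and 2 higher. The share of all genes at that looser limit is not given here, so these counts cannot be set against the 16.8% and 4.6%. The median log2 fold change of the 44 members was -0.75, with 37 below 0 and 7 above 0, where the median of all genes tested was -0.11. The remaining member, Ifit3b, was at 0.03 to 0.13 FPKM in WT and at 0 to 0.28 in cKO, and did not pass the filter of a mean of 0.1 FPKM. Without cKO 1 the count of members called lower was 16, where 3263 of 18702 genes tested were lower. With only the libraries in which Xist was under 1 FPKM, which leaves 2 WT libraries, the count was 1 (Gbp5). In those libraries 2261 of 18588 genes tested were lower. The log2 fold changes of the 10 members in those libraries were -2.88 to -0.99, close to those over all libraries (Gbp2 at -2.32 and -2.28, Gbp3 at -2.49 and -2.52, Mx1 at -1.63 and -1.51), and 9 of them had a limma adjusted p of 0.0532 to 0.223.

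**Figure D2:**
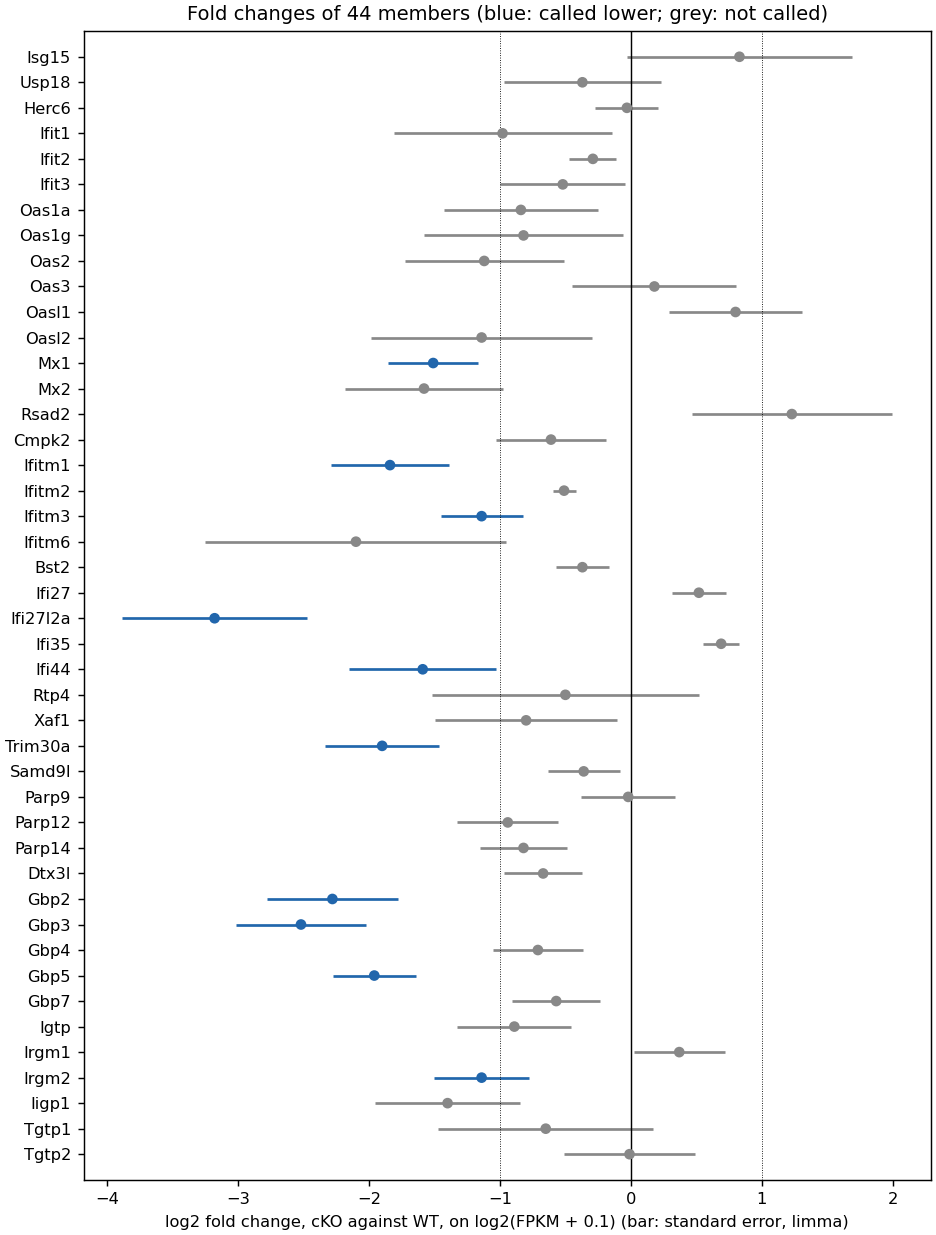
Log2 fold change (cKO against WT, on log2(FPKM + 0.1)) of the 44 members tested, with the standard error from limma as a bar and dotted lines at a 2-fold change. The 10 members called lower are blue and lie between -3.18 and -1.14, and the other members are grey.

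The cKO libraries were far from each other in these genes, which a difference between group means does not show. The mean of log2(FPKM + 0.1) over the 44 members was 2.38, 2.89, 2.95, 2.61 and 2.63 in WT 1 to 5. In cKO 1 to 5 it was 3.05, 1.40, 3.04, 0.71 and 1.38. Libraries cKO 1 and cKO 3 were thus above all WT libraries and cKO 2, 4 and 5 below all of them, and the group values were 2.69 ± 0.23 in WT and 1.92 ± 1.07 in cKO (SD, n = 5 each). The SD of log2(FPKM + 0.1) was larger in cKO than in WT for all 44 members tested, against 68.8% of all genes tested. Its median over members was 0.29 in WT and 1.07 in cKO, and over all genes 0.24 and 0.35. The unevenness was noticed in these values, so it is given as a description, with no test.

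In cKO 1, 25 of the 44 members lay above all 5 WT libraries and 10 below. The counts were 21 above and 13 below in cKO 3. In cKO 2 they were 2 above and 34 below, in cKO 4 they were 2 and 38, and in cKO 5 they were 1 and 40. Over all genes tested the cKO libraries were alike in this respect, with 25.3% to 29.4% of genes above and 34.8% to 41.0% below the WT range. For 35 of the 44 members (79.5%) both cKO 1 and cKO 3 were above cKO 2, 4 and 5, an order that 10.2% of all genes tested showed. Neutrophil markers had this order of libraries too, though by mean only. The mean log2(FPKM + 0.1) of neutrophil markers was 7.04, 3.35, 5.77, 2.4 and 5.3 in cKO 1 to 5, with cKO 1 and 3 above the others and cKO 1 above the WT range of 5.73 to 6.14, although by summed FPKM (2600, 181, 856, 148 and 1120) cKO 5 was above cKO 3. Dendritic cell markers had sums of 65.0, 36.4, 99.1, 36.5 and 63.0 FPKM, but that list includes the member Bst2. Bst2 alone was at 58.09, 30.21, 63.0, 33.38 and 31.72 FPKM, most of the sum in cKO 1, 2 and 4. The order by sum thus largely repeats a member and is no separate observation. By mean (-0.47, -0.64, 1.17, -1.18 and 1.03) cKO 5 was above cKO 1. Monocyte and macrophage markers had means of 1.07, 0.02, 2.45, -1.17 and 2.84 and sums of 64.9, 17.0, 160.0, 7.19 and 256 FPKM, with cKO 5 highest on both scales. Depth was lowest in cKO 1 and was 16040000 fragments in cKO 3, within the range of the other libraries.

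**Figure D3:**
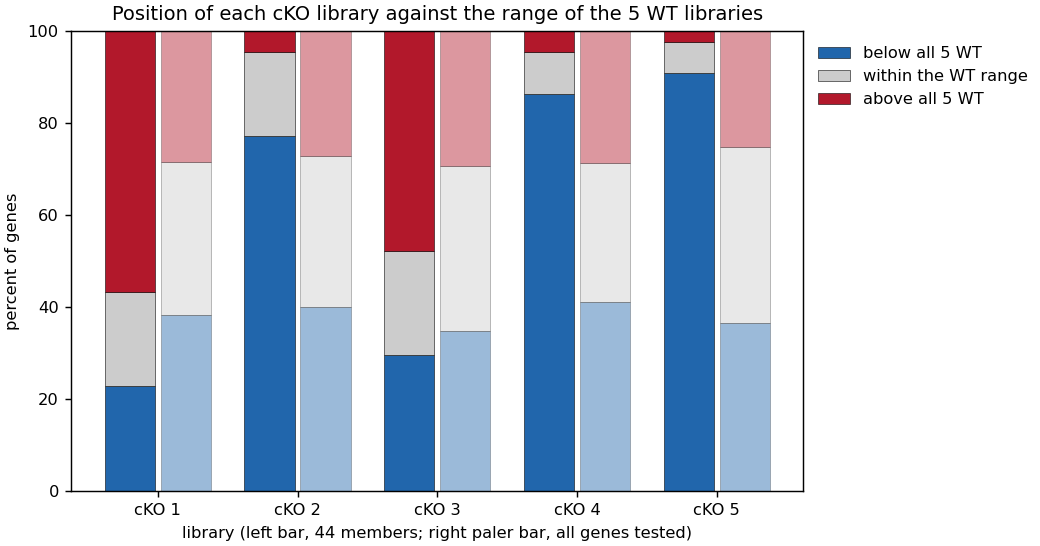
Percent of genes below (blue), within (grey) and above (red) the range of the 5 WT libraries, for each cKO library, with the 44 members in the left bar and all genes tested in the paler right bar. Members lie mostly above or within the WT range in cKO 1 and 3 and mostly below it in cKO 2, 4 and 5, where 77.3%, 86.4% and 90.9% were below.

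**Figure D4:**
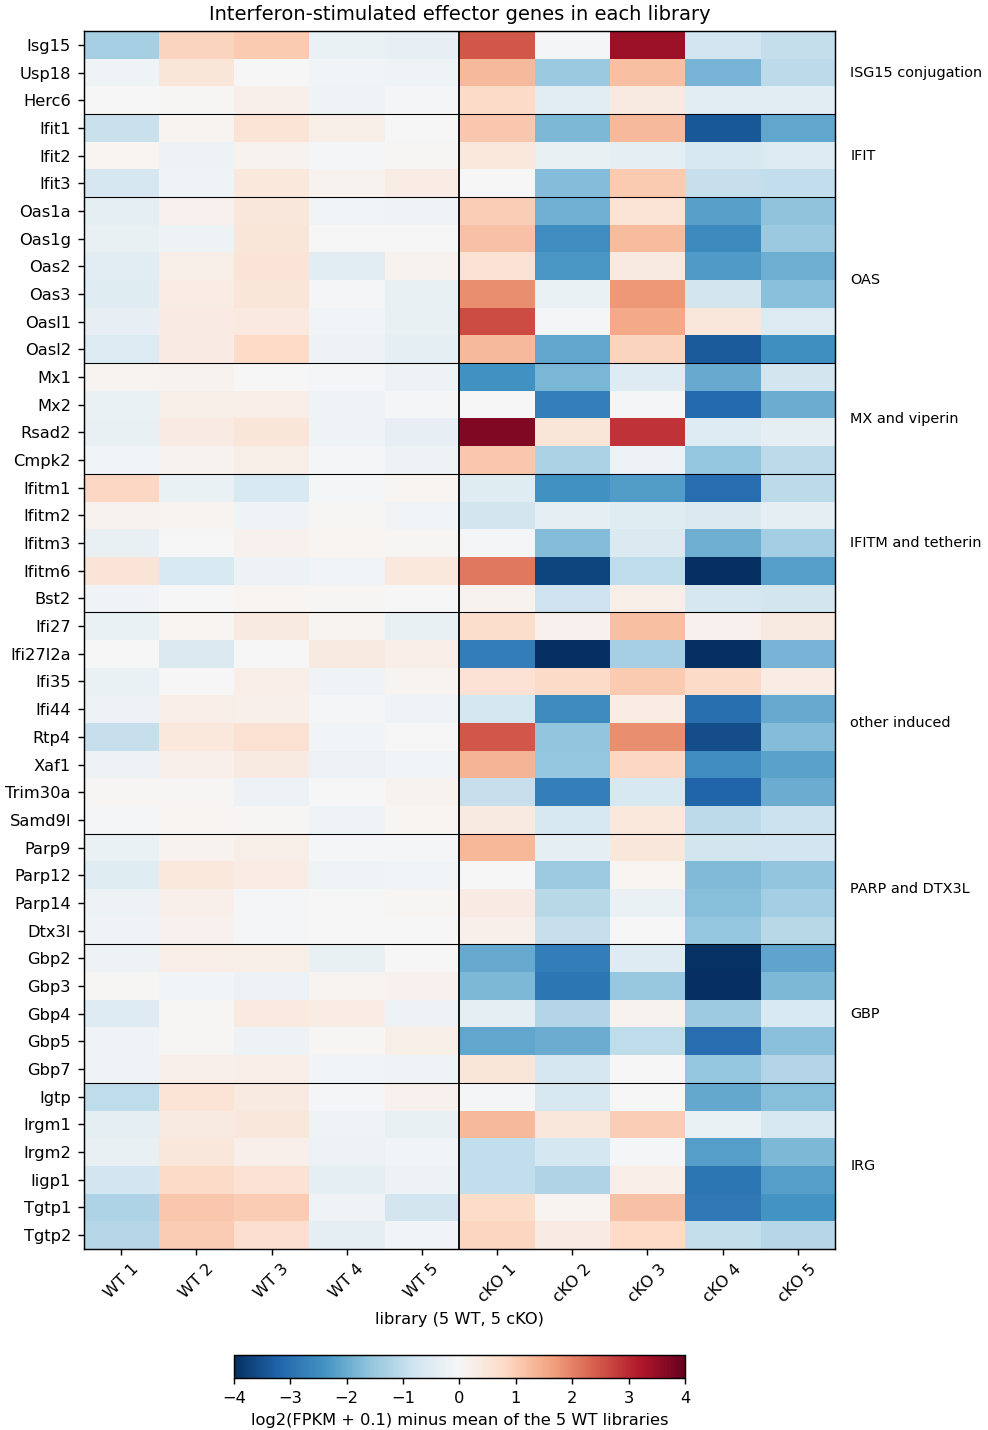
Log2(FPKM + 0.1) of each member in each library minus the mean of the 5 WT libraries, from blue (lower) to red (higher), with members grouped by role and colours ending at 4 in either direction. The columns cKO 1 and cKO 3 are red for ISG15, OAS and viperin genes, the GBP genes are blue or pale in each cKO library, and Ifi35 is red in all 5.

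Isg15, Usp18 and Herc6 belong to the ISG15 system. ISG15 is a ubiquitin-like protein that interferon induces and that is joined to other proteins, USP18 removes it and also damps signalling from the type I receptor, and HERC6 is the mouse ligase that attaches it. Isg15 (ENSMUSG00000035692; GRCm39 chr4:156283883-156285303, minus strand) was at 2.48, 11.84, 13.07, 5.25 and 5.01 FPKM in WT 1 to 5 and at 36.18, 6.04, 69.13, 3.72 and 3.22 FPKM in cKO 1 to 5. The 2 highest libraries were cKO 3 and cKO 1, while the other 3 cKO libraries lay within the WT range, and the log2 fold change was 0.83 (standard error 0.858, limma adjusted p = 0.465). Usp18 was at 3.12, 4.93, 3.48, 3.28 and 3.10 FPKM in WT and at 8.78, 1.19, 8.26, 0.91 and 1.67 FPKM in cKO. Here each cKO library lay outside the WT range, cKO 1 and 3 above it and the others below, and the log2 fold change of -0.37 (standard error 0.597, limma adjusted p = 0.642) described no single library. Herc6 had the same arrangement at a smaller span, 2.77 to 3.65 FPKM in WT and 2.30 to 5.44 in cKO. None of the 3 was called.

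IFIT proteins bind foreign RNA ends and block its translation. Ifit1 was at 1.04, 2.16, 2.95, 2.37 and 2.03 FPKM in WT and at 4.33, 0.50, 5.09, 0.10 and 0.40 FPKM in cKO, a 50.9-fold span among the cKO libraries. Again cKO 1 and 3 were above and the other cKO libraries below all WT libraries. Ifit3 lay at a lower level, at 0.38, 0.59, 0.93, 0.74 and 0.84 FPKM in WT and 0.66, 0.13, 1.5, 0.31 and 0.29 FPKM in cKO, with cKO 1 inside the WT range. Ifit2 was at 7.42 to 9.37 FPKM in WT and 5.51 to 11.5 FPKM in cKO, and only cKO 1 was above WT. The log2 fold changes of these 3 genes lay between -0.98 and -0.29 and none was called. Ifit3 and Ifit3b are near copies, so the split of reads between them is uncertain.

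The OAS genes encode enzymes that sense double-stranded RNA and make 2-5A, the messenger that activates RNase L, and Oasl1 and Oasl2 encode relatives of them. Oasl2 was at 1.66, 3.12, 4.34, 2.14 and 1.86 FPKM in WT and at 6.26, 0.51, 4.64, 0.15 and 0.37 FPKM in cKO. Oas2 was at 0.74, 1.25, 1.55, 0.76 and 1.18 FPKM in WT and at 1.62, 0.13, 1.37, 0.14 and 0.20 FPKM in cKO. In both genes cKO 2, 4 and 5 were below all WT libraries, but only in Oasl2 were cKO 1 and 3 both above them. Oas1a and Oas1g, a near-identical pair whose reads may be split, showed the arrangement of Oasl2. Oas3 (0.71 to 9.20 FPKM in cKO) and Oasl1 (3.61 to 32.61) were highest in cKO 1 and 3 as well, and their log2 fold changes were 0.18 and 0.80. None of the 6 OAS genes was called, and their log2 SD had a median of 0.37 in WT and 1.52 in cKO.

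Mx1 encodes a dynamin-like GTPase that blocks influenza and other viruses, and it differed from the genes above. Mx1 (ENSMUSG00000000386; GRCm39 chr16:97248235-97264107, minus strand) was at 3.58, 3.62, 3.35, 3.11 and 2.88 FPKM in WT and at 0.53, 0.85, 2.26, 0.74 and 1.94 FPKM in cKO. All cKO libraries were below all WT libraries, and cKO 1 was the lowest (log2 fold change -1.51, standard error 0.344, limma adjusted p = 0.00448). Mx1 is also the gene whose promoter drives Cre in the cKO mice. Mx2 was at 0.63 to 0.95 FPKM in WT and 0 to 0.78 FPKM in cKO, and missed the threshold (limma adjusted p = 0.0522). Rsad2 encodes viperin, a radical enzyme that makes a chain-terminating nucleotide, and lies beside Cmpk2 on chromosome 12, whose product supplies the substrate. Rsad2 was at 1.86, 2.89, 3.28, 2.01 and 1.79 FPKM in WT and at 30.82, 3.25, 17.72, 1.59 and 1.71 FPKM in cKO. In cKO 1 and 3 it was far above WT, in cKO 2 within the WT range and in cKO 4 and 5 just below it, and the log2 fold change of 1.23, the highest among the members, was not called (standard error 0.766, limma adjusted p = 0.216). Cmpk2 was at 13.06 to 17.45 FPKM in WT and 5.0 to 31.64 FPKM in cKO, where only cKO 1 was above WT.

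**Figure D5:**
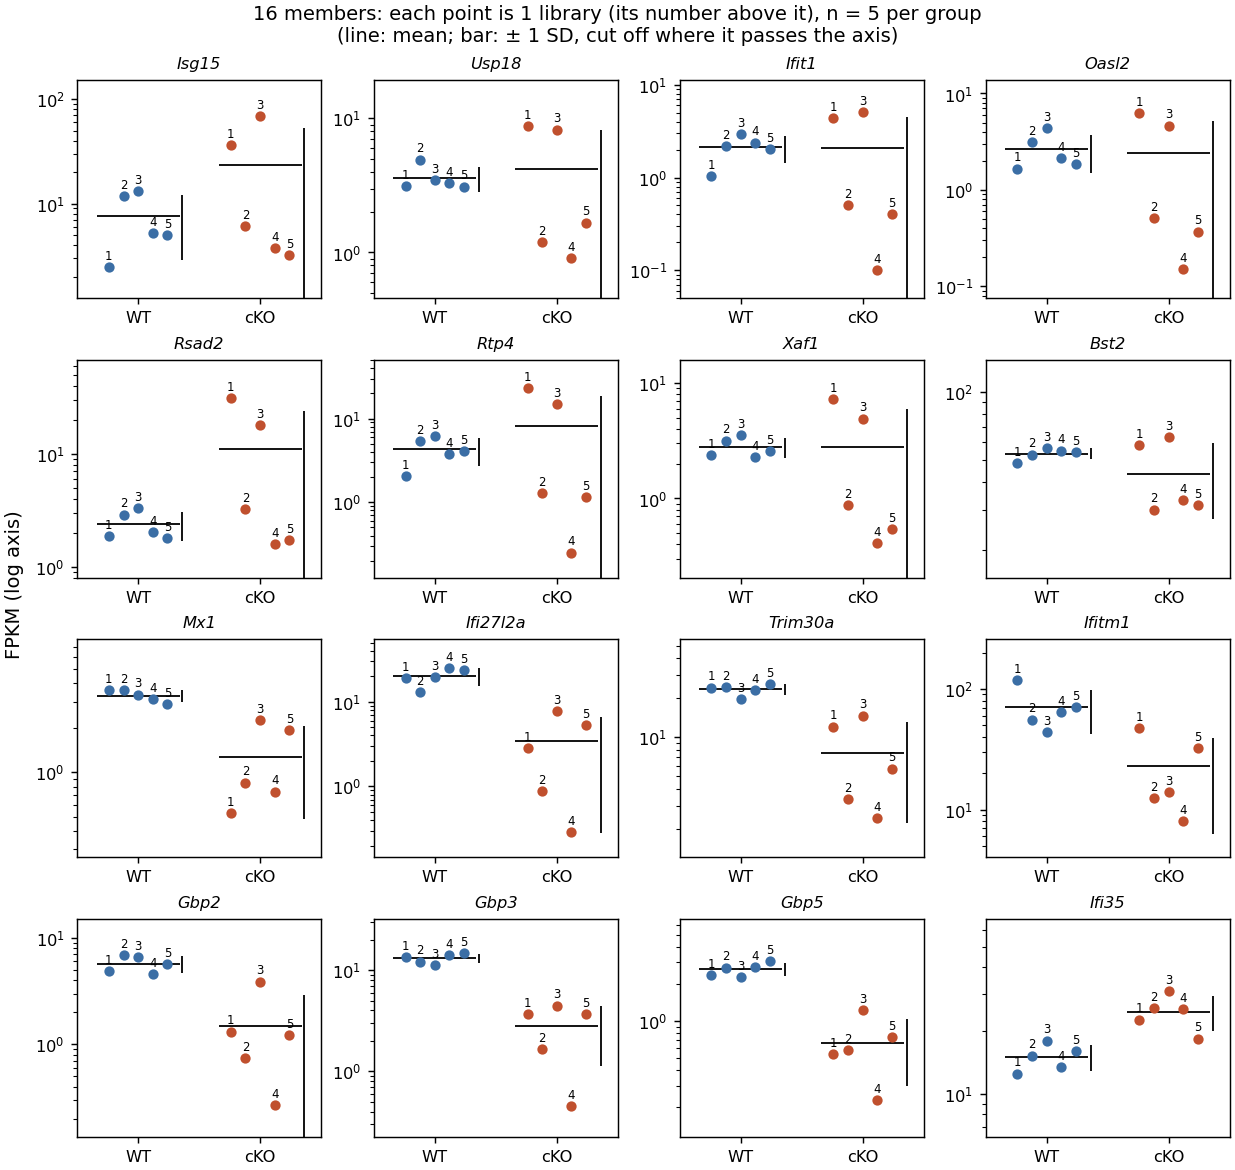
FPKM of 16 members in each library on log axes, with the library number above each point, the group mean as a line and 1 SD either way as a bar that stops at the edge of the panel. In the upper 8 panels cKO 1 and 3 are apart from the other cKO libraries, and in the panels for Mx1, Ifi27l2a, Trim30a, Gbp2, Gbp3 and Gbp5 all cKO points are below all WT points.

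IFITM proteins sit in endosomal and surface membranes and hinder the fusion of viruses, and BST2 (tetherin) holds budding virus at the cell surface. Ifitm1 fell, with 117.53, 55.67, 43.75, 64.1 and 70.8 FPKM in WT and 47.36, 12.44, 14.01, 8.02 and 32.1 FPKM in cKO (log2 fold change -1.84, standard error 0.452, limma adjusted p = 0.00671). The lowest WT library was under cKO 1, so the groups overlapped. Ifitm3 was at 122.45, 152.72, 169.43, 161.13 and 156.7 FPKM in WT and at 143.87, 45.82, 101.55, 39.41 and 58.83 FPKM in cKO, with cKO 1 inside the WT range (log2 fold change -1.14, standard error 0.314, limma adjusted p = 0.0125). Its call was lost without cKO 2, without cKO 4 and in both settings that take Xist into account. Ifitm2 was lower in each cKO library, at 123.22 to 158.17 FPKM against 178.74 to 223.53 FPKM, but by less than 2-fold (log2 fold change -0.51, limma adjusted p = 0.000878). Ifitm6 was at 8.73 to 19.1 FPKM in WT and at 57.8, 0.96, 6.61, 0.15 and 2.85 FPKM in cKO, where the value of 0.15 is about 2 fragments and lies under the floor of 3. Bst2 was at 48.4, 52.76, 56.3, 54.98 and 54.04 FPKM in WT and at 58.09, 30.21, 63.0, 33.38 and 31.72 FPKM in cKO, with cKO 1 and 3 above and the others below WT.

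Of the 8 further induced genes 3 were called lower. Ifi27l2a, a gene of a family of small mitochondrial and membrane proteins, had the largest fall of the set. The gene (ENSMUSG00000079017; GRCm39 chr12:103399975-103409950, minus strand) was at 19.19, 13.02, 19.56, 24.93 and 23.55 FPKM in WT and at 2.81, 0.88, 7.81, 0.29 and 5.29 FPKM in cKO (log2 fold change -3.18, standard error 0.707, limma adjusted p = 0.00388). All cKO libraries were below WT, although Ifi27 overlaps it on the other strand and whether counting used strand is not stated. Ifi27 itself was at 18.31 to 29.14 FPKM in WT and 25.47 to 51.99 FPKM in cKO (log2 fold change 0.52, limma adjusted p = 0.0588). Trim30a, which encodes a ubiquitin ligase that restrains innate signalling and lies in a cluster of related Trim30 genes, was at 19.46 to 25.44 FPKM in WT and 2.41 to 14.57 FPKM in cKO, with no overlap (log2 fold change -1.90, standard error 0.434, limma adjusted p = 0.00447). Ifi44 was low, at 0.59 to 0.87 FPKM in WT and 0 to 0.89 FPKM in cKO, and its call held in 6 of 20 alternative settings.

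Rtp4, which encodes a chaperone of receptors that also damps the interferon response, was at 2.06 to 6.13 FPKM in WT and at 23.09, 1.28, 14.85, 0.25 and 1.15 FPKM in cKO, a 92.4-fold span. Xaf1, a gene linked to apoptosis, was at 2.38, 3.18, 3.52, 2.30 and 2.57 FPKM in WT and at 7.27, 0.88, 4.92, 0.41 and 0.54 FPKM in cKO. Both followed Usp18 in lying above WT in cKO 1 and 3 and below it elsewhere, as did Samd9l, at 6.69 to 18.59 FPKM in cKO. Ifi35, whose product pairs with NMI, was the reverse of Mx1. It was at 12.51 to 17.94 FPKM in WT and at 22.55, 25.57, 30.92, 25.25 and 18.33 FPKM in cKO, so that each cKO library was above WT (log2 fold change 0.69, standard error 0.14, limma adjusted p = 0.00224), at less than a 2-fold change.

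PARP9, PARP12 and PARP14 add or read ADP-ribose, and DTX3L is the ligase partner of PARP9. Parp14 was at 7.24, 9.67, 8.08, 8.37 and 8.58 FPKM in WT and at 10.57, 3.81, 6.86, 2.50 and 3.18 FPKM in cKO, with cKO 1 above and the other 4 cKO libraries below WT. Parp9 was at 6.67 to 28.65 FPKM in cKO, against 9.52 to 13.42 FPKM in WT, and Dtx3l, which overlaps it, at 4.95 to 17.18 against 13.48 to 16.76 FPKM. Parp12 was at 1.31 to 4.87 FPKM in cKO and 3.31 to 6.32 FPKM in WT. None was called, and the log2 fold changes were -0.94 to -0.02.

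The guanylate-binding proteins, GTPases best known as targets of interferon gamma, coat the vacuoles of intracellular bacteria and parasites. Of the role groups they had the lowest median log2 fold change, -1.96, and 3 of 5 were called lower. Gbp3 (ENSMUSG00000028268; GRCm39 chr3:142265731-142278979, plus strand) was at 13.42, 12.13, 11.13, 14.11 and 14.66 FPKM in WT and at 3.67, 1.66, 4.47, 0.45 and 3.69 FPKM in cKO (log2 fold change -2.52, standard error 0.497, limma adjusted p = 0.00196). Gbp2 was at 4.89, 6.88, 6.61, 4.55 and 5.68 FPKM in WT and at 1.32, 0.74, 3.89, 0.27 and 1.22 FPKM in cKO (log2 fold change -2.28, standard error 0.5, limma adjusted p = 0.00364). Gbp5 was at 2.26 to 3.06 FPKM in WT and 0.23 to 1.23 FPKM in cKO (log2 fold change -1.96, standard error 0.317, limma adjusted p = 0.000614), and its call held in each of 21 alternative settings. In these 3 genes all cKO libraries were below all WT libraries and cKO 4 was the lowest. Gbp7, their neighbour on chromosome 3, was at 4.82 to 20.19 FPKM in cKO and 12.59 to 17.17 FPKM in WT, with cKO 1 above and cKO 3 within the WT range. Gbp4, on chromosome 5 in an overlap with Gbp8 and Gbp9, did not exceed 0.4 FPKM in any library.

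The immunity-related GTPases act on the same vacuoles, and the IRGM proteins keep the others in check. Irgm2 was at 5.22, 8.99, 7.41, 5.45 and 6.0 FPKM in WT and at 3.19, 3.96, 6.32, 1.34 and 1.79 FPKM in cKO, with cKO 3 inside the WT range (log2 fold change -1.14, standard error 0.363, limma adjusted p = 0.0243). Its call held in 13 of 21 alternative settings, and it overlaps Igtp on the same strand. Igtp was at 11.28, 33.55, 29.21, 21.67 and 25.42 FPKM in WT and at 22.12, 14.47, 22.86, 5.40 and 6.93 FPKM in cKO. Irgm1 had a log2 fold change of 0.37, with 9.91, 16.46, 17.32, 11.15 and 10.4 FPKM in WT and 31.58, 17.36, 25.06, 10.64 and 8.17 FPKM in cKO. Neither was called, and the WT libraries themselves spread more here than elsewhere, with a median log2 SD of 0.63 over the 6 genes. Iigp1 was at 0.03 to 1.06 FPKM in cKO and 0.47 to 1.54 FPKM in WT, and Tgtp1 and Tgtp2, a near-identical pair, reached at most 4.24 and 24.92 FPKM.

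Taking members one by one, 7 had all 5 cKO libraries below all 5 WT libraries (15.9%, against 21.6% of all genes tested): Mx1, Ifitm2, Ifi27l2a, Trim30a, Gbp2, Gbp3 and Gbp5. A single member, Ifi35, had all 5 above (2.27%, against 10.6%). Without cKO 1 the first count was 13. Leaving out a library cannot lower such a count for genes that stay tested, and the share of all genes without cKO 1 is not given here. A separate 11 members had cKO 1 and 3 above all WT libraries and cKO 2, 4 and 5 below all of them: Usp18, Herc6, Ifit1, Oas1a, Oas1g, Oasl2, Bst2, Rtp4, Xaf1, Samd9l and Parp9. They were 25.0% of the members tested, and 24 of all 18742 genes tested (0.128%) had this arrangement, which was chosen after the values were seen. In 18 members (40.9%), against 15.8% of all genes tested, cKO 1 and 3 were above all WT libraries wherever the other cKO libraries lay. ISRE letters were held by 22 of all 45 members, by 11 of these 18, and by 4 of the 10 called lower (Trim30a, Gbp2, Gbp5 and Irgm2); these shares were not compared by a test.

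The rest of the pathway was counted from lists of 94 genes, 74 of them tested, of which 25 were lower (33.8%) and 1 higher, where 16.8% of all genes tested were lower and 4.6% higher. Interferon genes themselves were hardly seen. Of 20 ligand genes 17 were listed at 0 in all 10 libraries, a floor of 3 fragments being worth at most 0.386 FPKM for any of the 20, and Ifng was at 0 to 0.14 FPKM. None of the 20 passed the filter.

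Among 20 receptors and signal carriers 5 were lower and 1 higher. Both chains that were called, Ifnar1 of the type I receptor and Ifngr2 of the type II receptor, fell by 1.05 on the log2 scale, Ifnar1 from 11.06 to 15.95 FPKM in WT to 5.78 to 7.49 FPKM in cKO. Among these genes the falls were largest for the interferon regulatory factor genes Irf8, a determinant of monocytes and dendritic cells (38.13 to 53.65 FPKM in WT, 0.09 to 10.16 in cKO, log2 fold change -5.24), Irf5 (12.02 to 23.23 and 0.25 to 4.35, -3.76) and Irf1 (9.0 to 12.39 and 0.64 to 3.85, -2.05). Irf8 is itself one of the dendritic cell markers above. Socs1, the feedback inhibitor of JAK kinases, was the gene called higher, at 0.28 to 0.52 FPKM in WT and 0.35 to 2.52 FPKM in cKO (log2 fold change 1.36, standard error 0.473, limma adjusted p = 0.0371), and was highest in cKO 2.

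Stat2, Irf9 and Irf7, which carry the type I signal to its target genes, were not called. Stat2 was at 6.89 to 9.24 FPKM in WT and 2.37 to 9.82 in cKO, with cKO 1 above WT and the other cKO libraries below, and its log2 fold change of -0.89 was under 2-fold (limma adjusted p = 0.0371). Irf9 was at 14.49 to 18.66 FPKM in WT and at 24.95, 14.43, 18.54, 11.78 and 11.1 FPKM in cKO (log2 fold change -0.03). Irf7, the factor that amplifies the type I response, was at 3.47, 6.98, 7.25, 5.12 and 4.75 FPKM in WT and at 27.34, 2.63, 14.26, 2.38 and 1.95 FPKM in cKO (log2 fold change 0.04). It had the arrangement of Usp18, with cKO 1 and 3 above WT and the others below.

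Of 15 nucleic acid sensors 6 were lower, led by Tlr9, the endosomal DNA receptor (2.29 to 3.88 FPKM in WT, 0 to 0.43 in cKO, log2 fold change -3.79), Sting1, the adaptor of cytosolic DNA sensing (13.88 to 23.76 and 0.68 to 7.08, -2.99), and Ifi204 (3.79 to 4.65 and 0.19 to 2.13, -2.81). Of 39 further interferon-stimulated genes 14 were lower, led by Ifi209 (27.15 to 45.64 and 0.13 to 7.15, -5.01), Ifi211 (8.14 to 10.5 and 0 to 3.14, -3.67) and Ifi203 (18.49 to 24.41 and 0.35 to 5.22, -3.58), which are genes of the PYHIN family of DNA-binding proteins. In each of these 6 leading genes all cKO libraries were below all WT libraries. The mean log2(FPKM + 0.1) of the further genes was 3.43 to 3.57 in WT and 2.86, 2.11, 3.29, 1.71 and 2.53 in cKO 1 to 5, so that no cKO library was above WT.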

How the data were processed

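Lin- bone marrow cells of 5 WT and 5 cKO samples were measured by RNA-seq. Per the labels and the study's methods, the authors trimmed reads with cutadapt 1.9.1, aligned them to GRCm39 with HISAT2 2.0.1, listed HTSeq 0.6.1 among their tools and deposited 1 FPKM value per gene and library, with 2 decimals. Annotation, gene lengths and strand setting are not given in the sources used here. Groups and replicate numbers came from the sample titles. Depth was read from genes with 1 transcript, where 94.4% to 95.3% of values up to 20 fragments were whole within 0.2 (40% by chance); no pair of libraries agreed within sampling noise. Gene lengths for fragment floors, which cover counting error only, and gene starts for promoters (Ensembl canonical transcripts) came from the GENCODE annotation of GRCm39, so floors are approximate.

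Tests (two-sided) with limma 3.58.1 in R 4.3.3 (lmFit, then eBayes with its trend option) were run on log2(FPKM + 0.1) over the 18742 genes whose mean reached 0.1 FPKM, with Benjamini-Hochberg adjustment over all of them. The steps were tested on simulated data in which both groups had the WT spread. That test does not cover the larger spread of the cKO libraries. The fold change on this scale understates changes of low genes. Called genes had an adjusted p under 0.05 and at least a 2-fold change. The members, the pathway and marker lists, the tests and the alternatives were chosen with earlier results of these data known. All members are named; values in every library are given for called members with the largest change of their role, members called higher and standard examples of each role, and for Dhx9 and Irf7; Stat2 and Irf9 are also named, and 1 further gene is not reported here; of each pathway list, the 3 largest called changes. Single genes and patterns beyond this were picked after their values were seen. Alternatives were other pseudocounts (0.01, 1), filters (none, a mean of 1 FPKM), scalings, no trend, adjusted p alone, the replicate number as a block, Xist as a covariate, libraries with Xist under 1 FPKM, and each library left out.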

Additional observations from a re-analysis of the deposited data

Results flagged for a closer look

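The 45 members and Dhx9, each in WT and in cKO, gave 92 groups of 5 libraries. In 5 of them a single library stood apart by Dixon's limit, and chance alone flags about 4.6, or 1 in 20. Cmpk2 was at 31.64 FPKM in cKO 1 and at 5.0 to 12.51 FPKM in the other cKO libraries. Ifitm6 was at 57.8 FPKM in cKO 1 and at 0.15 to 6.61 FPKM in the others. Ifit2 was at 11.5 FPKM in cKO 1 and at 5.51 to 7.02 FPKM in the others. Ifit3b was at 0.28 FPKM in cKO 3 and at 0 to 0.03 FPKM in the others, levels near the worth of 3 fragments (0.106 FPKM). Usp18 was at 4.93 FPKM in WT 2 and at 3.10 to 3.48 FPKM in the other WT libraries. Of the 5 libraries 3 were cKO 1.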

How the results depend on the processing

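Single members kept their direction and side of the threshold in 845 of 917 values over 21 alternatives, with 33 no longer past it, 12 newly past it and 27 turned in direction. The 10 members called lower kept their call in 176 of 209 and none turned: Gbp5 kept it in 21 of 21, Ifitm1, Ifi27l2a, Trim30a, Gbp2 and Gbp3 in 20, Mx1 in 19, Ifitm3 in 17, Irgm2 in 13 and Ifi44 in 6 of 20. The count of members called lower was 7 to 11 in the alternatives that kept all libraries, 1 with only the libraries where Xist was under 1 FPKM (2 WT left), and 7 to 16 with 1 library left out (16 without cKO 1). Over all genes tested, 2261 of 18588 were lower with low Xist only, and 2892 to 3268 genes with 1 library left out. With all libraries kept, 1486 of 18742 genes were lower with a pseudocount of 1, where 7 members were. With a pseudocount of 0.01, 3229 genes and 9 members were lower. The member count thus moved along with a count over all genes that itself depended on the setting. Members called higher were 1 by adjusted p alone (Ifi35), a setting for which no share of all genes is given here. Members with all cKO libraries below WT were 7 to 13 with 1 library left out, which cannot lower this count for genes that stay tested. The members' median was -0.43 without cKO 4 or with a pseudocount of 1 and -1.11 without cKO 1. Quantile normalization moved the median of all genes tested from -0.11 to 0.08 and the share of lower among all calls from 78.5% to 61.1%; the members' median was then -0.50. Turned in direction were Herc6 (0.08 with median-ratio scaling, 0.41 with quantile normalization, -0.23 to 0.08 with 1 library left out), Parp9 (0.05 with the Xist covariate and with low Xist only, 0.09 and 0.11 with the scalings, -0.35 to 0.17), Tgtp2 (0.06 and 0.06, 0.09 and 0.11, -0.3 to 0.27), Usp18 (0.07, quantile), and with 1 library left out Oas3 (-0.23 to 0.65) and Rtp4 (-1.25 to 0.26). All 6 had missed the threshold; the cause was not tested. Dhx9, at a log2 fold change of 1.0, slipped under the 2-fold limit at 0.98 with the Xist covariate and with low Xist only, 0.99 with a pseudocount of 1, 0.89 with quantile normalization, and 0.96 to 1.02 with 1 library left out. Pathway genes called lower were 16 with low Xist only, where 2261 of 18588 genes tested were lower, and 40 by adjusted p alone. For adjusted p alone no share of all genes is given here, so its pathway counts in either direction have nothing to be set against. Pathway genes called higher were 6 by adjusted p alone, 2 with quantile normalization and 0 to 1 with 1 library left out. In the last 2 cases 1489 and 762 to 948 of all genes tested were higher. The pathway count was 0 with the Xist covariate, low Xist only, a mean of at least 1 FPKM, no filter, a pseudocount of 1 or the replicate block. Deviations of same-numbered WT and cKO libraries correlated at -0.0103 to 0.1166, with the own number highest for 3 of 5. These values do not settle whether the numbers pair the samples. With the replicate block, 11 members were called lower, where 3107 of 18742 genes tested were. Depth limits the lowest members: Ifit3b, Mx2 and Ifi44 had cKO libraries at 0 fragments.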

Other observations

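Besides 11 members, 13 genes had cKO 1 and cKO 3 above all WT libraries and cKO 2, 4 and 5 below all of them. Of these, 5 were on the pathway lists: Irf7, Rigi (the cytosolic RNA sensor RIG-I), Adar (the RNA-editing enzyme ADAR1), Helz2 and Trim34a. Rigi was at 3.19 to 3.80 FPKM in WT and at 5.05, 1.25, 3.82, 0.78 and 0.97 FPKM in cKO. Adar was at 12.65 to 14.23 FPKM in WT and at 19.11, 10.43, 18.16, 9.56 and 10.14 FPKM in cKO.

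The other 8 included H2-Q4, a class I histocompatibility gene (24.63 to 36.11 FPKM in WT, 40.69, 14.92, 38.26, 11.69 and 16.38 FPKM in cKO), and 4 genes known from neutrophils and their precursors or from inflammation: S100a9, Lrg1, Chi3l1 and Slfn4. S100a9 was at 48.33 to 93.11 FPKM in WT and at 894.75, 17.61, 157.68, 7.57 and 44.16 FPKM in cKO. Slfn4 was at 0.86 to 1.11 FPKM in WT and at 9.28, 0.18, 1.9, 0.02 and 0.40 FPKM in cKO. The remaining 3 were Gm15591, Gm16216 and Gm6685. The arrangement was chosen after the values were seen, and no test was made of it.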
